A study of Rattus norvegicus with 6 samples.

Results

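The genes described are complement components and regulators other than C1q, measured in rat renal cortex. They were chosen by name: C1r, C1s, C2, Cfb, Cfd and C3 as components, and Serping1, Cd55 and Cfi as regulators. The 6 components had 9 probes and the 3 regulators had 6, so that 15 of 61657 non-control probes on the array and 9 of 15277 named genes belonged to the set. All 15 probes were reported, and the 9 genes were each represented in the test by the kept probe with the highest mean signal. The treated animals were 3 male Sprague-Dawley (Crl:CD(SD)) rats dosed for 4 weeks with 1000 mg/kg/day of o-anthranilic acid, and the vehicle animals were 3 male rats of that strain dosed for as long with corn oil. The rats were bought at 5 weeks of age and kept on a basal diet, with 1 array per animal. o-Anthranilic acid is ortho-aminobenzoic acid, a metabolite that mammals also form from tryptophan.

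Complement is a cascade of plasma proteins that marks and lyses microbes and clears immune complexes. The proteases C1r and C1s, bound to C1q, cleave C4 and C2 in the classical pathway. In the alternative pathway factor D cleaves factor B on bound C3b, and both routes meet at C3, whose cleavage tags surfaces and releases an anaphylatoxin. C1 inhibitor, encoded by Serping1, blocks C1r and C1s, CD55 speeds the decay of the C3 convertases on cell surfaces, and factor I cuts C3b into inactive forms. The liver makes most circulating complement, and kidney tubule and interstitial cells also express several components. The genes C1r and C1s are neighbours in the RefSeq gene order, with 0 protein-coding genes between them, and so are C2 and Cfb.

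Promoter windows are shown for C3, since all activation routes meet at its protein, and for C1r, since it had the most positive difference between the groups. Each runs from 250 bases before to 50 bases after the gene's start in RefSeq, build GRCr8, and is written along the gene's strand. Capitals mark matches to TTGNNNAA, a loose form of the site of C/EBP factors, which are transcription factors of liver and acute-phase genes. C3 lies at chr9:2201290-2201589 on the minus strand of build GRCr8 and C1r at chr4:159098763-159099062 on the plus strand.
C3: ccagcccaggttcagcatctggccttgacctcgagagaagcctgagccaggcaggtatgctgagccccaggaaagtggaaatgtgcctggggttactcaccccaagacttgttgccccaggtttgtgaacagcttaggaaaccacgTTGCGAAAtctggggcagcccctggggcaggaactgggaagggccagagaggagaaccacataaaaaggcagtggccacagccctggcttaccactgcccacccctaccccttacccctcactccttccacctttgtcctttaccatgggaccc
C1r: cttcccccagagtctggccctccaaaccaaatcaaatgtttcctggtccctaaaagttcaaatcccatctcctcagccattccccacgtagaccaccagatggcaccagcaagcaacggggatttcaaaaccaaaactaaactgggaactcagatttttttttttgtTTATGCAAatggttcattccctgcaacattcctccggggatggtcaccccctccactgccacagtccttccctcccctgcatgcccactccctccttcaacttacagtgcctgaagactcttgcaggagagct

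The matches began at position -104 relative to the start of C3, read along the gene, and at position -83 of C1r, read on the opposite strand. Promoter windows were matched for 5 of the 9 genes, C1r, Cfd, C3, Cd55 and Cfi, and 7 motifs were searched on both strands. Of 33469 windows of the same length, 37.2% held TTGNNNAA, which was found in C1r, C3 and Cfi. GGGCGG, the GC box, was found in Cfd and at 3 places in Cd55, of which 2 overlap, and in 33.1% of all windows. TTCNNNGAA (in 8.87% of windows), GAAANNGAA (9.71%), the NF-kB consensus (4.18%), CCAAT (37.5%) and TATAAA (14.2%) had no match in the 5 windows. TTCNNNGAA is the form bound by STAT factors and GAAANNGAA the core of the interferon-stimulated response element. These letter matches are descriptions and not binding sites.

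Between 63.6% and 68.2% of probes were well above background on the treated arrays, and between 65.9% and 69.3% on the vehicle arrays. The cortex carried its defining transcripts in both groups: Slc34a1, the phosphate carrier of the proximal tubule, stood between 8.49 and 8.55 in treated and between 8.45 and 8.63 in vehicle animals on the log2 scale. All 10 proximal tubule markers and all 6 podocyte markers listed were well above background on enough arrays to be tested. Treated replicate 2 was alone on its slide, and the other 5 arrays shared a slide, so values from that slide alone are the values without that animal. Values are log2 of the processed spot signal minus the array's 75th percentile, so that 0 is the array's upper quartile and a difference of 1 is a doubling. Probes differ in brightness for the same amount of RNA, so levels were compared between animals and not between genes.

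No difference between treated and vehicle animals in any of the 9 complement genes passed the test. limma with Benjamini-Hochberg adjustment over 30709 features called 0 of 9, against 0% of all features, and the smallest adjusted p among the 9 was 0.709, for Cfb. At an unadjusted p under 0.05 the count was also 0 of 9, where 8.3% of all features were under it. The treated and vehicle values overlapped for each of the 9 genes, whereas they did not overlap for 14.7% of all features. Of the 9 genes, 4 had a log2 fold change above 0 and 5 below, with 51.9% of all features below 0, and their median was -0.13 against -0.01 over all features. In bulk cortex RNA, fewer cells of a type and less RNA per cell cannot be told apart.

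The 6 components had a median log2 fold change of -0.18, with 2 above 0 and 4 below. The 3 regulators had a median of 0.04, with 2 above 0 and 1 below. Relative to the vehicle mean, the mean of the components stood at -0.36, -0.16 and 0.10 in treated replicates 1, 2 and 3, against 0.12, -0.02 and -0.10 in vehicle replicates 1, 2 and 3. The mean of the regulators stood at -0.11, 0.00 and 0.04 in the treated animals, against 0.25, -0.30 and 0.05 in the vehicle animals. Both means overlapped between the groups. The component median was 0.018 without treated replicate 1 and -0.25 without treated replicate 2. That of the regulators was -0.18 without vehicle replicate 2 and 0.22 without vehicle replicate 1.

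**Figure D1:**
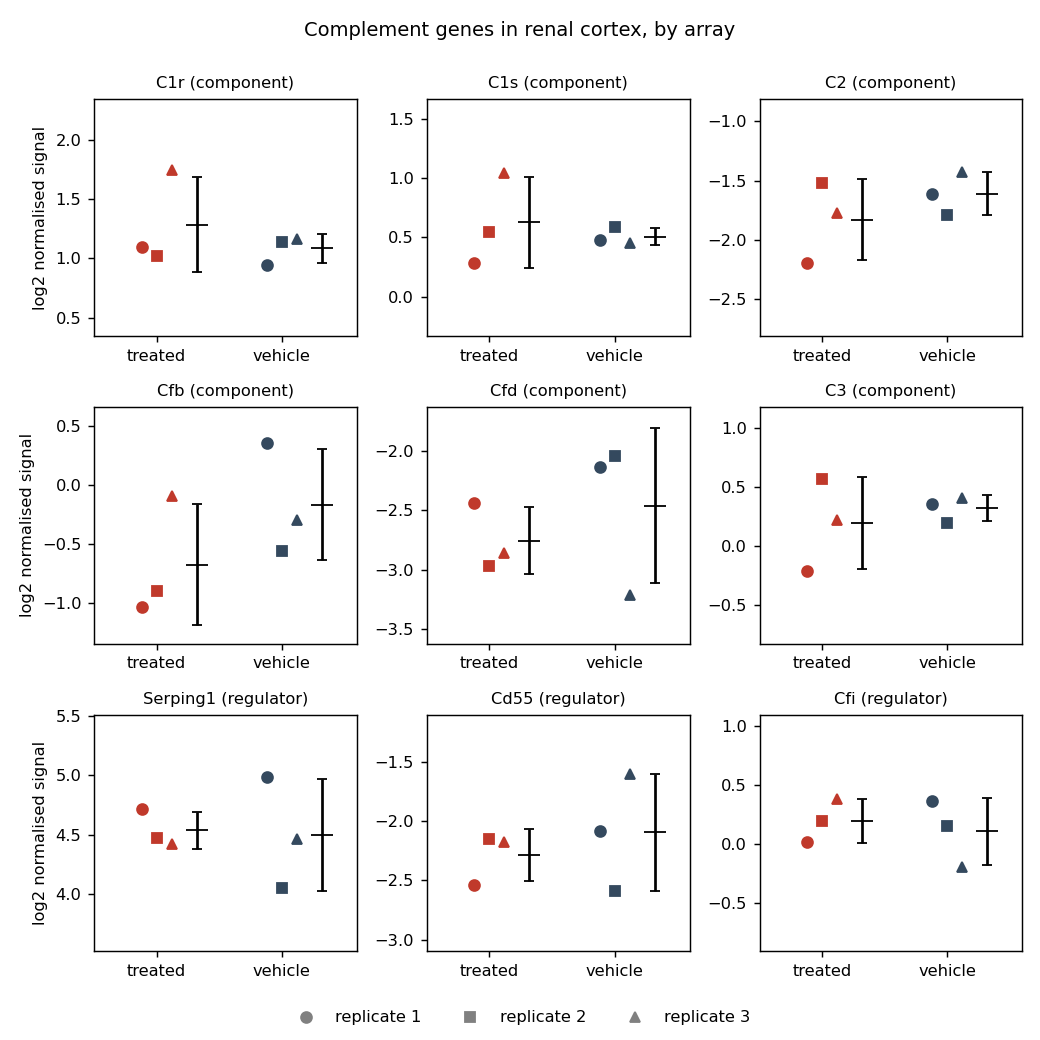
Normalised log2 signal of the 9 complement genes on each array, with treated animals left of vehicle animals, a symbol per replicate, and the mean with its SD (n = 3) in black; each panel spans the same height on the log2 scale. Treated and vehicle points overlap in every panel.

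The proteases of the classical pathway, C1r and C1s, had slightly higher means in treated animals, and treated replicate 3 alone stood above the rest. C1r (NM_001134555) had log2 signals of 1.10, 1.02 and 1.74 in treated replicates 1, 2 and 3, against 0.95, 1.14 and 1.17 in vehicle replicates 1, 2 and 3. Its mean was 1.29 ± 0.40 in treated and 1.08 ± 0.12 in vehicle animals (SD, n = 3 each), and its log2 fold change of 0.20 ± 0.20 (SE) had a 95% interval from -0.30 to 0.70 and a limma adjusted p of 0.816. Without treated replicate 3 the log2 fold change of C1r was -0.03, and on the slide with both groups it was 0.34. C1s (NM_138900) had 0.29, 0.55 and 1.05 in treated replicates, against 0.48, 0.59 and 0.45 in vehicle replicates. Treated animals thus held both the highest and the lowest C1s signal, and the vehicle animals lay between them. Its log2 fold change was 0.12 ± 0.19 (SE), with a 95% interval from -0.35 to 0.59, and was -0.09 without treated replicate 3 and 0.16 on the slide with both groups. The other C1s probe had -2.01, -1.61 and -1.12 in treated and -1.59, -1.42 and -1.59 in vehicle animals, with a log2 fold change of -0.05. It ordered the extreme animals as the tested probe did, with the highest signal in treated replicate 3 and the lowest in treated replicate 1.

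C2 (NM_172222), the classical pathway protease that C1s cleaves, was lowest in treated replicate 1. It had log2 signals of -2.20, -1.52 and -1.77 in treated replicates 1, 2 and 3, against -1.61, -1.79 and -1.42 in vehicle replicates. C2 had a log2 fold change of -0.22 ± 0.19 (SE, 95% interval from -0.69 to 0.25), which was -0.04 without treated replicate 1 and -0.38 on the slide with both groups. The other C2 probe gave -2.69, -2.11 and -2.48 in treated and -2.12, -2.00 and -2.11 in vehicle animals. On that probe treated replicate 2 lay within the vehicle range and the others below it, and with every kept probe tested the log2 fold change was -0.35 ± 0.15 (SE), with an unadjusted p of 0.0617 and a limma adjusted p of 0.602.

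C3 (NM_016994), the central component, overlapped between the groups, and its extreme values both lay in treated animals. Its log2 signals were -0.21, 0.56 and 0.22 in treated replicates 1, 2 and 3, against 0.36, 0.20 and 0.41 in vehicle replicates. The mean was 0.19 ± 0.39 in treated and 0.32 ± 0.11 in vehicle animals (SD, n = 3 each). The log2 fold change of -0.13 ± 0.20 (SE) had a 95% interval from -0.61 to 0.35 and a limma adjusted p of 0.886. It was 0.07 without treated replicate 1 and -0.32 on the slide with both groups. These data therefore set bounds on a C3 difference and do not show that the groups were equal.

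Of the alternative pathway proteases, Cfb had the most negative difference of the 9 genes and Cfd a wide spread among vehicle animals. Cfb (NM_212466), factor B, had -1.03, -0.90 and -0.09 in treated replicates 1, 2 and 3, against 0.35, -0.55 and -0.30 in vehicle replicates. Treated replicate 3 lay above 2 of the 3 vehicle animals, and vehicle replicate 1 was the highest. Cfb had a log2 fold change of -0.51 ± 0.33 (SE), a 1.42-fold lower mean in treated animals, with a 95% interval from -1.31 to 0.29. It ranged from -0.80 without treated replicate 3, where the unadjusted p was 0.0325 and the gene was not called, to -0.25 without vehicle replicate 1, and was -0.39 on the slide with both groups. The other Cfb probe had -2.98, -2.78 and -1.83 in treated and -1.34, -2.47 and -2.15 in vehicle animals, with a log2 fold change of -0.54 ± 0.40 (SE) and the same highest and lowest animals.

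Cfd (NM_001077642), factor D, known also as adipsin and abundant in fat cells, had log2 signals of -2.44, -2.97 and -2.86 in treated replicates, against -2.13, -2.04 and -3.21 in vehicle replicates. Vehicle replicate 3 held the lowest value of all 6 animals and the other vehicle animals the 2 highest. For Cfd the log2 fold change was -0.30 ± 0.34 (SE) with a 95% interval from -1.12 to 0.53. It was -0.67 without vehicle replicate 3, with an unadjusted p of 0.0143 and no call, -0.08 without vehicle replicate 2 and -0.19 on the slide with both groups. Of 8 listed fat cell genes, 6 were tested. Plin1 had no named probe, and Lep was well above background on too few arrays. The mean of the tested genes, relative to the vehicle mean, stood at 0.43, 0.39 and 0.06 in treated replicates, against 0.26, 0.20 and -0.46 in vehicle replicates. The low mean of vehicle replicate 3 came mainly from Fabp4 and Retn, dim probes each well above background on 2 vehicle arrays. They stood at -6.57 and -6.08 in that animal, against vehicle means of -4.51 and -5.31. Adipoq was also lowest there, but Cidec was lowest in vehicle replicate 2, Lpl in vehicle replicate 1 and Pnpla2 in treated replicate 1. Adipoq, the fat cell hormone adiponectin, was 0.09, 0.24 and 0.33 in treated and -0.11, -0.10 and -0.22 in vehicle animals, with a log2 fold change of 0.36 against -0.30 for Cfd. The part of fat cell RNA in the Cfd values was not tested.

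Among the regulators, Serping1 (NM_199093), C1 inhibitor, was measured by 3 probes, each with vehicle replicate 1 highest and vehicle replicate 2 lowest. The tested probe had 4.71, 4.48 and 4.42 in treated replicates 1, 2 and 3, against 4.98, 4.05 and 4.46 in vehicle replicates. The vehicle animals spanned the treated ones on both sides. Serping1 averaged 4.54 ± 0.16 in treated and 4.50 ± 0.47 in vehicle animals (SD, n = 3 each), with a log2 fold change of 0.04 ± 0.24 (SE), a 95% interval from -0.54 to 0.62 and a limma adjusted p of 0.976. The other 2 Serping1 probes gave log2 fold changes of 0.03 and 0.13. The log2 fold change of the tested probe ranged from -0.18 when vehicle replicate 2 was left out to 0.28 when vehicle replicate 1 was, and was 0.07 on the slide with both groups.

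Cd55 (NM_022269), decay-accelerating factor, had log2 signals of -2.54, -2.15 and -2.17 in treated replicates, against -2.08, -2.59 and -1.60 in vehicle replicates. Here too the vehicle animals held both the highest and the lowest value. The log2 fold change was -0.20 ± 0.26 (SE) with a 95% interval from -0.83 to 0.44, and was 0.05 without vehicle replicate 3, -0.45 without vehicle replicate 2 and -0.27 on the slide with both groups. The other Cd55 probe was near the detection limit, well above background on 2 treated and 3 vehicle arrays, at -4.86, -4.64 and -4.14 in treated and -4.04, -4.32 and -3.84 in vehicle animals. Its log2 fold change of -0.48 ± 0.21 (SE) had an unadjusted p of 0.0632 and a limma adjusted p of 0.604 with every kept probe tested. Cfi (NM_024157), factor I, had 0.02, 0.20 and 0.38 in treated replicates, against 0.36, 0.15 and -0.19 in vehicle replicates. Its log2 fold change of 0.09 ± 0.17 (SE) had a 95% interval from -0.32 to 0.50, and it was -0.06 without vehicle replicate 3 and 0.09 on the slide with both groups.

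**Figure D2:**
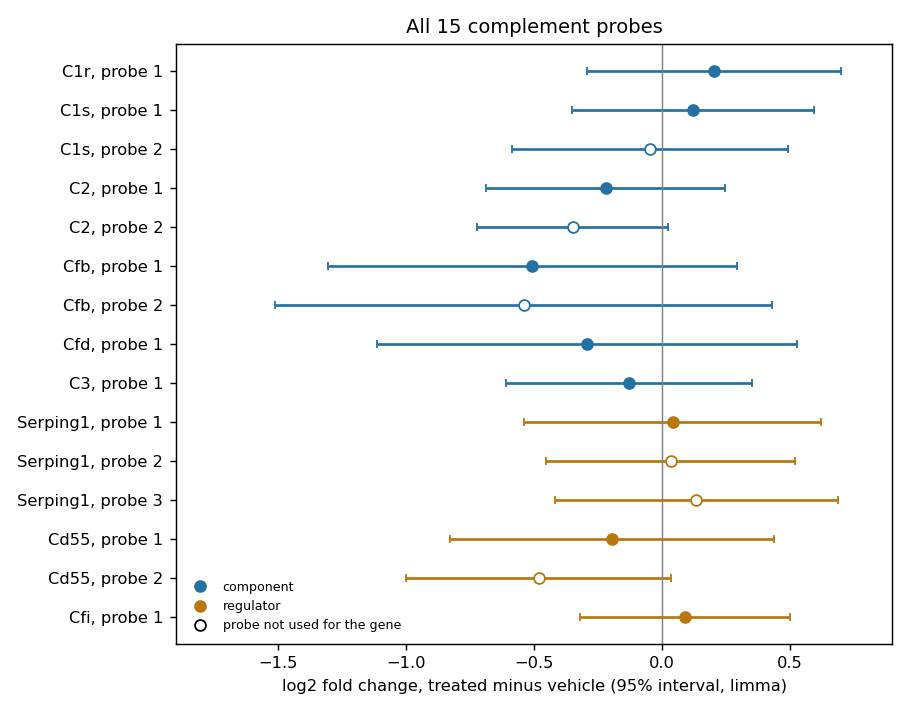
log2 fold change, treated minus vehicle, of all 15 probes of the 9 genes with the 95% interval from limma on every kept probe; filled points are the probes used for the gene, blue marks components and ochre regulators. The intervals of all 15 probes include 0.

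Of the 6 additional probes of C1s, C2, Cfb, Serping1 and Cd55, 5 had a log2 fold change of the same sign as the tested probe, the exception being C1s. The highest animal was the same on 5 of the 6, the exception being C2, and the lowest animal on 5 of the 6, the exception being Cd55. The spread between animals was therefore seen by separate probes of a gene, which share the RNA sample and the array. With every kept probe as a feature, limma called 0 of the 15 probes and 0% of 41551, and 0 of the 15 had an unadjusted p under 0.05, where 8.47% of all kept probes did.

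The complement genes varied more between animals of the same group than most transcripts did. The SD within a group, pooled over treated and vehicle animals, was 0.50 for Cfd, 0.49 for Cfb, 0.38 for Cd55, 0.35 for Serping1 and between 0.24 and 0.29 for Cfi, C2, C1s, C3 and C1r, against a median of 0.14 over all features. Cfd and Cfb had a larger SD than 94.1% and 93.7% of features, and Cfi, the least variable of the 9, a larger one than 74.8%. The animals with extreme values differed between genes. Treated replicate 1 was the lowest animal for C1s, C2, Cfb and C3, treated replicate 3 the highest for C1r, C1s and Cfi, and vehicle replicate 1 the highest for Cfb and Serping1.

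**Figure D3:**
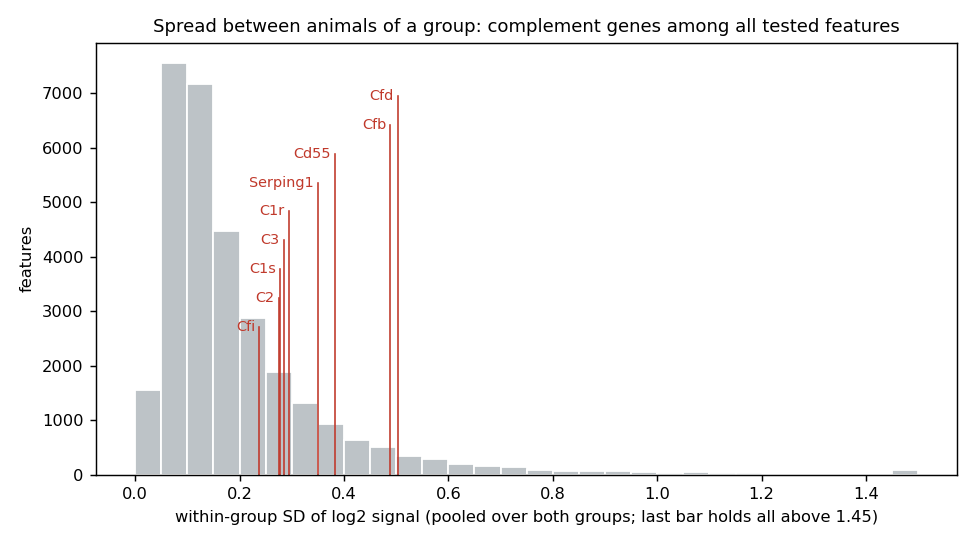
Histogram of the within-group SD of the log2 signal over all 30709 tested features, with a red line at the value of each complement gene (line height has no meaning). All 9 genes lie above the median of 0.14.

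Some members shared a profile over the 6 animals. Likeness was measured as the root mean square distance, on the log2 scale, between profiles centred on their means. Of 36 pairs of members, C2 and C3 were the closest, at 0.073, followed by the neighbouring genes C1r and C1s, at 0.13. For C3 the 5 nearest of 5443 named genes with at least 0.5 times its range were Ccl5 at 0.063, C5ar1 at 0.065, Gna15 at 0.066, C2 at 0.073 and C14h7orf57 at 0.075, over a range of 0.78 for C3 itself. Ccl5 is a chemokine of T cells and other leukocytes, and C5ar1 is the receptor of the anaphylatoxin C5a. For Cfb, the member with the smallest p, the 5 nearest of 2427 were Upk3bl1 at 0.15, Sez6 at 0.17, Crtac1 at 0.18, Spmip2 at 0.19 and Ifit2 at 0.19, the last an interferon-induced gene. The profiles share arrays and RNA samples, and 6 animals allow many close matches among this many genes.

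Factor B, C2, C3 and C1 inhibitor are known from several cell types as interferon-inducible, and levels of other gene lists stood as follows beside them. Of 17 listed interferon response genes, 16 were tested and limma called 0. The log2 fold change was below 0 for 15 of them, against 51.9% of all features, with a median of -0.44. At an unadjusted p under 0.05, 7 were lower and 0 higher, against 4.84% and 3.46% of all features, and the groups did not overlap for 2 lower and 0 higher genes, against 8.31% and 6.39%. Their mean relative to the vehicle mean was -0.57, -0.52 and -0.34 in treated replicates 1, 2 and 3, against 0.31, -0.39 and 0.08 in vehicle replicates 1, 2 and 3. Cfb relative to its own vehicle mean was -0.87, -0.73 and 0.08 in treated replicates, against 0.52, -0.39 and -0.13 in vehicle replicates. For both the interferon mean and Cfb, vehicle replicate 1 was the highest and vehicle replicate 2 the lowest vehicle animal. Treated replicate 3 lay within the vehicle range, and treated replicates 1 and 2 lay below it. C2, C3 and Serping1 shared only part of this. Vehicle replicate 2 was their lowest vehicle animal too, and treated replicate 3 lay within their vehicle range. For C2 and C3, treated replicate 1 lay below that range, but vehicle replicate 3 was the highest vehicle animal. Treated replicate 2 stood at 0.09 for C2 and 0.24 for C3. For Serping1 all treated animals lay within the vehicle range. Of the other members, C1r, C1s and Cfi were highest in treated replicate 3, where the interferon mean stood at -0.34. Cfd was lowest in vehicle replicate 3 and Cd55 in vehicle replicate 2. The part of the interferon genes in the complement values was not tested.

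Of 10 macrophage and myeloid markers, 9 were tested, and Cd163 was well above background on too few arrays. All 9 were below 0, against 51.9% of all features, with a median of -0.10. An unadjusted limma p under 0.05 was seen for 0 of the 9 markers, against 8.3% of all features. The groups did not overlap for 0 of the 9, against 14.7%. Their mean was -0.30, 0.00 and -0.12 in treated replicates, against -0.08, 0.06 and 0.02 in vehicle replicates, and treated replicate 1 was the lowest, as for C2 and C3. The lymphocyte list, 7 of 10 genes tested, was also lowest there, at -0.59, 0.55 and 0.20 in treated replicates, against 0.00, -0.04 and 0.04 in vehicle replicates. Of 9 fibroblast and mesangial genes, 7 were tested and limma called 0, with a median log2 fold change of 0.19. At an unadjusted limma p under 0.05, 2 were higher and 0 lower, against 3.46% and 4.84% of all features. The groups did not overlap for 3 higher and 0 lower genes, against 6.39% and 8.31%. Their mean was 0.14, -0.03 and 0.42 in treated replicates, against 0.06, 0.05 and -0.12 in vehicle replicates. Treated replicate 3 was the highest, as for C1r and C1s. Of 15 NF-kB and acute-phase genes 11 were tested and limma called 0, with a median of 0.10. At an unadjusted limma p under 0.05, 0 were higher and 1 lower, and the groups did not overlap for 0 higher and 1 lower gene. The lists of hepatocyte and endothelial genes, 7 and 6 tested with 0 called, had medians of -0.10 and -0.11. At an unadjusted limma p under 0.05, 1 hepatocyte gene was higher and 2 lower, against 3.46% and 4.84% of all features. The groups did not overlap for 1 higher and 2 lower hepatocyte genes, against 6.39% and 8.31%. Both counts were 0 in each direction for the endothelial genes. The part of these cell types in the complement values was not tested.

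**Figure D4:**
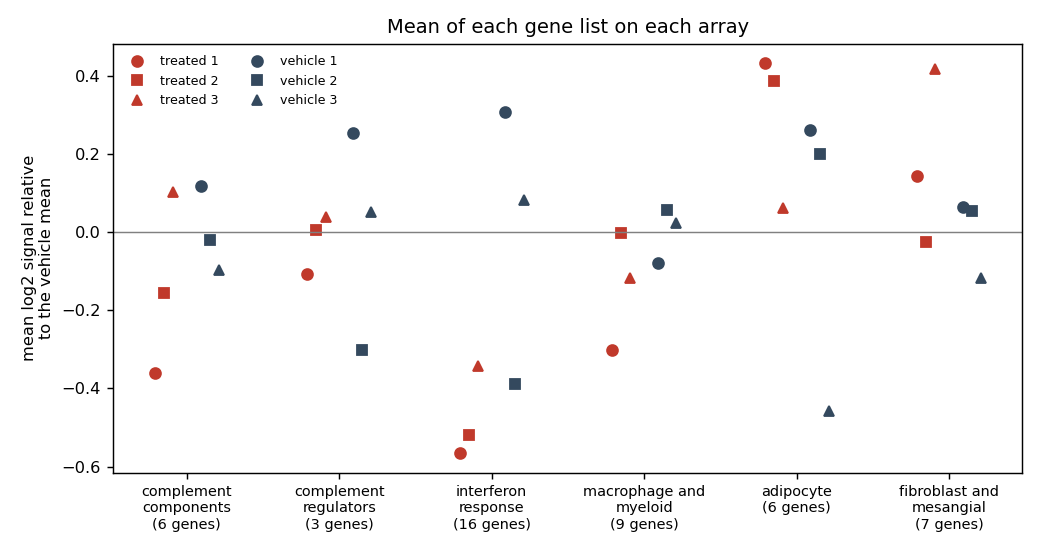
Mean log2 signal of the complement components and regulators and of 4 other gene lists on each array, relative to the vehicle mean, with treated arrays left of vehicle arrays in each list and a symbol per replicate. Treated replicate 1 is the lowest array for the components, the interferon genes and the macrophage genes.

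Of 50 other complement genes listed, 40 had a named probe and 27 were tested. limma called 0 of 27. Before adjustment 3 genes were higher and 4 lower at a p under 0.05, against 3.46% and 4.84% of all features. The groups did not overlap for 0 higher and 5 lower genes, against 6.39% and 8.31% of all features. Both counts of lower genes include C5ar2, which was well above background on 1 treated array and 3 vehicle arrays and so passed the filter on dim probes only through the vehicle group. With that filter set to all 6 arrays, 25 of these genes were tested and C5ar2 was not among them. With 11 genes above 0 and 16 below, the median log2 fold change was -0.03. The same 27 genes had a median of 0.01 without vehicle replicate 3.

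Upstream of the members, the recognition and classical or lectin genes had 2 of 10 above 0. C1qb (NM_019262), a chain of C1q, the recognition protein to which C1r and C1s bind, had 2.52, 3.03 and 2.91 in treated replicates 1, 2 and 3, against 3.15, 3.23 and 3.31 in vehicle replicates. Every treated value lay below every vehicle value, with a log2 fold change of -0.41 ± 0.15 (SE), an unadjusted p of 0.0311 and a limma adjusted p of 0.556. The log2 fold change of C1qb was -0.26 without treated replicate 1 and -0.51 on the slide with both groups. With its probes averaged it was -0.36, with an unadjusted limma p of 0.0548. The other C1q chains, C1qa and C1qc, stood at -0.26 and -0.34, and their groups overlapped. C4a (NM_031504), the substrate of C1s, stood between 3.93 and 4.03 in treated and between 4.05 and 4.31 in vehicle animals, again without overlap, and a log2 fold change of -0.23 ± 0.10 (SE) with an unadjusted p of 0.0548, and -0.20 on the slide with both groups. Rats carry a near-identical C4b gene, so signal from both may be read by this probe. Colec12, a scavenger receptor of the collectin family, stood at 0.38 ± 0.15 (SE), or 0.51 on the slide with both groups, and its groups overlapped.

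The alternative and terminal genes tested were Cfp, C6 and C8b, all above 0. Cfp, properdin, which stabilises the alternative convertase, stood at 0.04 ± 0.09 (SE), and C6, a protein of the membrane attack complex, at 0.41 ± 0.24 (SE), or 0.21 without vehicle replicate 3.

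Of 9 other regulators tested, Cpn1 (NM_053526) had the smallest p of the 27. It encodes the catalytic subunit of carboxypeptidase N, which trims the anaphylatoxins C3a and C5a. Its log2 signals were -1.09, -1.23 and -1.12 in treated replicates, against -0.64, -0.70 and -0.63 in vehicle replicates. The groups were well apart relative to the spread within each. A log2 fold change of -0.49 ± 0.07 (SE), a 1.40-fold lower mean in treated animals, had an unadjusted p of 0.000505 and a limma adjusted p of 0.386, so it did not pass over all features. It ranged from -0.52 to -0.45 without any 1 array and was -0.45 on the slide with both groups. Vtn, vitronectin, which binds the terminal complex, had a log2 fold change of 0.49 ± 0.20 (SE) that was 0.21 after normexp background correction and 0.66 on the slide with both groups. Cd59b, an inhibitor of the membrane attack complex, and Clu, clusterin, stood at 0.00 ± 0.07 and 0.22 ± 0.33 (SE). Clu was 0.06 without treated replicate 2, which leaves the slide with both groups, and 0.51 without vehicle replicate 3.

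Among the receptors, C3ar1 (NM_032060), the receptor of C3a, had -3.54, -3.24 and -3.32 in treated replicates, against -2.99, -3.21 and -2.92 in vehicle replicates, with a log2 fold change of -0.33 ± 0.12 (SE) and an unadjusted p of 0.0324, and -0.39 on the slide with both groups. C5ar2, a second receptor of C5a, was dim, well above background on 1 treated and 3 vehicle arrays. Its log2 fold change of -1.20 ± 0.28 (SE) was -0.25 after normexp background correction and -1.48 on the slide with both groups. Itgb2, the beta chain of the integrin receptors for C3 fragments, stood at 0.43 ± 0.20 (SE) and Cd93 at 0.10 ± 0.12 (SE), both with overlapping groups. On the slide with both groups Itgb2 was 0.25 and Cd93 0.21, and Cd93 was 0.04 without treated replicate 3.

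**Figure D5:**
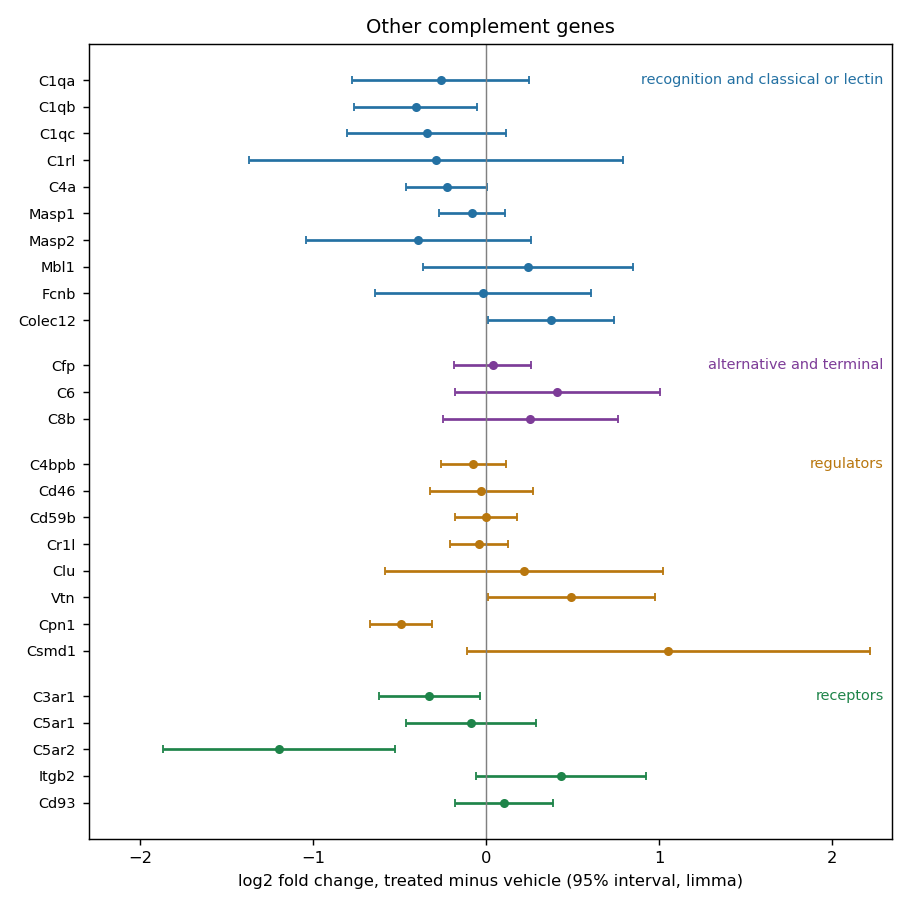
log2 fold change, treated minus vehicle, with the 95% interval from limma, of the other complement genes described, coloured by role. The intervals of C1qb, Cpn1, C3ar1 and C5ar2 lie below 0 and those of Colec12 and Vtn above 0, with 0 called after adjustment over all features.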

How the data were processed

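Cy3-labelled cRNA of renal cortex from 3 treated and 3 vehicle rats was hybridised to single-colour Agilent arrays, per the labels' protocols. The submitters' processing notes name Agilent Feature Extraction 10.7. The authors' scanner files give spot intensity, linear, background-subtracted and detrended but not scaled between arrays, per the file headers. The authors' deposited value table gives a ratio: set against the scanner files, it is the processed signal over that array's 75th percentile, linear and uncentred. Column medians were 0.106, 0.104 and 0.103 for treated and 0.104, 0.106 and 0.103 for vehicle replicates 1, 2 and 3. In both groups columns 1, 2 and 3 matched the scanner files of replicates 3, 1 and 2, so the true numbering is unknown. The numbers used are those of the scanner files, and no sample changes group.

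From 61657 non-control probes, 84 external RNA controls and 47 outlier-flagged probes were removed, and no non-control spot was saturated. RefSeq accessions (assembly GRCr8) named 27435 of 61526 probes. The array design names an older build, so no probe coordinates are given. Probes had to be well above background on at least 3 of the 6 arrays. Log2 signals minus the array's 75th percentile were fitted with limma 3.58.1 in R 4.3.3 (lmFit, eBayes; Benjamini-Hochberg over 30709 features; threshold 0.05), with data.table (version 1.17.8), statmod 1.5.0 and jsonlite 2.0.0. The fit was tested on simulated data. The number of arrays limited the precision, with a median SE of 0.113.

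The members and lists were chosen with earlier results of these data known. All members were named. Other complement genes were named if their unadjusted p was under 0.05 or if they were among the 2 brightest of their list, except 1 that is counted but not reported here. C1r's promoter and Adipoq were chosen after values were seen. So were C1qa, C1qc and the fat cell and lymphocyte genes named to qualify a list mean.

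Alternatives covered background correction (normexp, offset 50, on median signals), scaling (quantile, median, or the percentile over probes detected on every array), the value table, the filter on dim probes, the treatment of several probes, the variance model, replicate and slide blocks, and leaving out each array.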

Additional observations from a re-analysis of the deposited data

How the results depend on the processing

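None of the 9 complement genes was called by limma under any of 19 other settings, nor was any of the other complement genes. Over 171 combinations of a member and a setting, 162 had the same sign as the main value and 9 the opposite one. The smallest adjusted p from limma was 0.595. Many of these signs could not differ. The log2 fold changes of the members equalled the main ones under both other filters, every kept probe, the trended variance with robust fit, and the replicate block. The count of same signs is therefore no measure of stability. The opposite signs came from leaving out an array, except for Serping1 with array weights, at -0.0086. Without 1 array C1r ranged from -0.0277 to 0.34, C1s from -0.0894 to 0.29, C3 from -0.32 to 0.0721, Serping1 from -0.18 to 0.28, Cd55 from -0.45 to 0.0481 and Cfi from -0.0601 to 0.22. Cfp ranged from -0.0044 to 0.0972 and Cd59b from -0.0387 to 0.0252, and Cd59b was 0.0041 with quantile normalization and 0.0002 with median scaling. The median of the components ranged from -0.25 to 0.0178 without 1 array, and that of the regulators from -0.18 to 0.22. The median of the other complement genes ranged from -0.0414 to 0.0143 without 1 array, and was 0.0322 with no filter (40 genes tested) and -0.0017 with the slide as a block. limma called 0 features in the main comparison, 5 with normexp background correction, 5 under a trended variance with robust fit, 3 with the slide as a block, 2 when the probes of a gene were averaged, 1 with a filter of all 6 arrays, and between 0 and 3 without 1 array. The cause of these shifts was not tested. The fit with a slide block equals the fit without treated replicate 2. With the replicate number as a block limma called 0 features and 0 members, and the component median stayed at -0.18 and the regulator median at 0.04. Deviations of same-numbered animals correlated over features at 0.023, -0.044 and -0.021, so no effect shared by number was seen. Such correlations cannot show whether the animals were paired. Dim probes, such as those of C5ar2 and the second probe of Cd55, are limited by their signal over background.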
